A study of Mus musculus with 12 samples.

Results

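The genes described here are 42 members of the Wnt pathway in mouse embryonic stem (ES) cells: 19 Wnt ligands, 12 receptors (Fzd1 to Fzd10, Lrp5 and Lrp6), 8 secreted antagonists (4 Sfrp genes, Dkk1, Dkk2, Dkk3 and Wif1) and 3 genes of the nuclear response and feedback (Axin2, Lef1 and Tcf7). They were chosen by gene symbol, through the probe sets to which the array's annotation gives that symbol alone, out of 18193 genes named in that way. Of the 42 members, 41 had at least 1 probe set, 80 probe sets in all, and 53 of these passed the filter on low signals. That left 31 members to test, each through its brightest kept probe set: 12 of the ligands, 11 of the receptors, 6 of the antagonists and 2 of the nuclear and feedback genes. The other 11 are accounted for at the end of the members' results.

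Messenger RNA was read on Affymetrix mouse arrays in ES cells of 4 genotypes with 3 arrays each, 12 in all. The genotypes were wild type, Ring1B deficient (Ring1B-/-), Eed deficient (Eed-/-) and Ring1B/Eed double deficient. All were undifferentiated by the look of their colonies. The labels give the wild type line by a literature reference and say that the double deficient line came from targeting Ring1B in Eed deficient cells. They describe no second line of any genotype, so each comparison also holds any other difference between the lines. The labels call the arrays biological replicates and do not say what was separate between them. The p-values therefore measure the spread between these arrays, and the number of arrays limits the precision. Signals are in MAS5 units, scaled so that each array has the same trimmed mean of 100, with array medians from 19.1 to 28.0. Below, a gene is said to have risen or fallen only at an adjusted p under 0.05 in a limma model over all 13984 tested genes with Benjamini-Hochberg adjustment. Log2 changes are differences of log2(signal + 5), which are smaller than the log2 ratio of signals for a gene near the background.

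Wnt ligands are secreted lipid-modified proteins that bind Frizzled receptors together with the co-receptors Lrp5 and Lrp6. In the canonical branch this protects β-catenin from breakdown, and β-catenin then activates genes with the DNA-binding factors Lef1 and Tcf7 and their relatives. Other Wnt ligands act mainly through branches that steer cell polarity and calcium. Antagonists of the Sfrp family and Wif1 bind the ligands, while Dkk1 binds the co-receptors. In ES cells canonical signalling helps to maintain self-renewal, and in the embryo Wnt signals pattern the primitive streak while Dkk1 is made by the anterior visceral endoderm. Ring1B, encoded by Rnf2, is the ubiquitin ligase of Polycomb repressive complex PRC1, while Eed belongs to the core of PRC2, which methylates histone H3. Both complexes hold many developmental genes low in ES cells, and those genes often have promoters rich in CpG dinucleotides.

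Since Polycomb complexes are known to gather at CpG-rich promoters, the promoters of 4 members with large log2 changes between wild type and double deficient cells (Dkk1, Wnt4, Wnt11 and Fzd1) are shown with that of Wnt7a, the member of the table with the smallest change. Each is the 250 bases before the gene's start, from RefSeq on GRCm38.p6, printed 5′ to 3′ on the gene's strand with every CpG in capitals. The promoter of Dkk1 lies at chr19:30549497-30549746 (minus strand), that of Wnt4 at chr4:137277385-137277634 (plus strand) and that of Wnt11 at chr7:98834862-98835111 (plus strand). That of Fzd1 lies at chr5:4758217-4758466 (minus strand) and that of Wnt7a at chr6:91411354-91411603 (minus strand).
Dkk1: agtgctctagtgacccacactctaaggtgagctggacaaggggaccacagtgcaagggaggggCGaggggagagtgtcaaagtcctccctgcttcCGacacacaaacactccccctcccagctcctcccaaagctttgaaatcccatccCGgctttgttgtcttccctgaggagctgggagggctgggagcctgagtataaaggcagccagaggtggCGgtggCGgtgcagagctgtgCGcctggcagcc
Wnt4: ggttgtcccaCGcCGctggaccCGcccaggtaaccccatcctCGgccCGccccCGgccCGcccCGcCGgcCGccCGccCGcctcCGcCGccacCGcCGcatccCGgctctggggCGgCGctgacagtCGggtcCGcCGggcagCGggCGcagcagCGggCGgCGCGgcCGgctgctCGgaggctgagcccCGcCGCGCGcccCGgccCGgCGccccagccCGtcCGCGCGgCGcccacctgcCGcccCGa
Wnt11: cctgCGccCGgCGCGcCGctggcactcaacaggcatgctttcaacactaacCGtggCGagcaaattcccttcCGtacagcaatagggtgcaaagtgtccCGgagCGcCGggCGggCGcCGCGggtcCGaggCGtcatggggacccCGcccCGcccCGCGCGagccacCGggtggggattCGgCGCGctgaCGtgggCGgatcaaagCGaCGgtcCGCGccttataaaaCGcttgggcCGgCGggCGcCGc
Fzd1: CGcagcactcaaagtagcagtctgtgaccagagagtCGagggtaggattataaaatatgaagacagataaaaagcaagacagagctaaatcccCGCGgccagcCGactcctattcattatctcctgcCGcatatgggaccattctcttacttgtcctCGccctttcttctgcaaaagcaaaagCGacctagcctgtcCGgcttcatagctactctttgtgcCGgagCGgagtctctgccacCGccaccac
Wnt7a: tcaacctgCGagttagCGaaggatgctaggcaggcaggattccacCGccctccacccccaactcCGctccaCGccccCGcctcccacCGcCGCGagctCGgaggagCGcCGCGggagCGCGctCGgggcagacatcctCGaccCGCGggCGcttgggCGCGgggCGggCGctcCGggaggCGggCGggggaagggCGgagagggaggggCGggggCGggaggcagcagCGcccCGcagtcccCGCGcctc
The window held 6 CpG in Dkk1, 44 in Wnt4, 37 in Wnt11, 12 in Fzd1 and 34 in Wnt7a. Of these 5, Dkk1, with the largest log2 change, had the fewest CpG. Wnt7a, with a log2 change of 0.01, had nearly as many as Wnt11. Among windows not printed here, that of Wnt9a (log2 change 0.74) held 48 CpG, that of Axin2 (0.55) 24 and that of Lef1 (0.13) 11. Whether CpG content goes with the size of the change was not tested. The table held promoters of 29 of the 42 members, under the share needed to compare members with other genes, so a comparison of CpG content between them is void. Wnt5a, Wnt7b, Wnt10a and Fzd6 are among the members not in it. The windows were also searched on both strands for CTTTGAT and CTTTGAA, 2 forms of the core sequence that Lef1 and Tcf7 bind. CTTTGAT was found in Wnt11, here as its reverse complement, and in 3.26% of 27025 promoters of the same length, 1 per gene. CTTTGAA was found in Dkk1 and in 4.63% of those promoters. These matches are a description of the letters in the windows and were not tested as binding sites.

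The checks of the labels came first. The brighter Eed probe set gave 1428 ± 159 in wild type cells, 1642 ± 283 in those lacking Ring1B, 37.8 ± 13.1 in those lacking Eed and 71.2 ± 21.0 in those lacking both (SD, n = 3), so its signal was low in both genotypes that lack Eed, while a second set was dim in every genotype, from 9.85 to 24.2 over the 12 arrays. For Rnf2 the brightest of its probe sets gave 851 ± 124 in wild type cells, 468 ± 65.7 in those lacking Ring1B, 779 ± 168 in those lacking Eed and 383 ± 18.8 in those lacking both. It was lower in both genotypes that lack Ring1B, as was the next brightest, with 632 ± 74.6 in wild type cells, 330.4 ± 23.1 in those lacking Ring1B, 531 ± 106 in those lacking Eed and 275 ± 22.6 in those lacking both. A dimmer Rnf2 set was higher without Ring1B alone, at 29.9 ± 7.02 in wild type cells, 60.2 ± 8.27 in those lacking Ring1B, 22.3 ± 3.23 in those lacking Eed and 38.5 ± 3.80 in those lacking both, a log2 change of 0.91 (adjusted p = 0.0113) with Ring1B lost and 0.33 (adjusted p = 0.205) in double deficient cells. The remaining 2 Rnf2 sets gave at most 35.7 on any array, and the part of the gene that was deleted is not given in the sources used here. Of 12 markers of ES cells, 8 fell in double deficient cells, where their summed signal was 15819 to 18083 against 22248 to 23313 in wild type. Of 18 markers of primitive and visceral endoderm, 15 rose in cells lacking Ring1B, 16 in those lacking Eed and 16 in those lacking both. Their summed signal was 1364 to 1693 in wild type, 6015 to 8308 in cells lacking Ring1B, 8933 to 12739 in those lacking Eed and 12809 to 15570 in those lacking both. Of 19 measured markers of fibroblasts, which serve as feeder cells in many ES cultures, 5 rose in cells lacking Eed and 13 in those lacking both. Their summed signal was 1331 to 1508 in wild type, 993 to 1450 in Ring1B deficient and 4874 to 5365 in double deficient cells. In Eed deficient cells it was 1898 and 2042 in replicates 1 and 2 and 5094 in replicate 3, which stood apart. Col1a2, a fibrillar collagen, gave 151 to 176 in wild type and 676 to 884 in double deficient cells, and Prrx1, a mesenchymal transcription factor, 7.32 to 19.9 and 59.5 to 77.8, while Lum, of the fibroblast matrix, stayed dim at 9.17 to 12.4 and 17.5 to 19.4. Of 8 tested trophoblast markers, 3 rose in cells lacking Ring1B, 6 in those lacking Eed and 6 in those lacking both. The summed signal of the 11 with a probe set was 685 to 1401 in wild type, 1463 to 3012 in cells lacking Ring1B, 3623 to 6149 in those lacking Eed and 4756 to 7827 in those lacking both. Of 11 tested markers of primitive streak and mesoderm 4, 4 and 6 rose in the same order, with sums of 145 to 250.2 in wild type and 368 to 451 in double deficient cells. Of 8 neuroectoderm markers 2 rose in each mutant genotype, and 2, 1 and 1 fell. These marker counts are to be read beside the shares of all tested genes. In Ring1B deficient, Eed deficient and double deficient cells 4.68%, 10.8% and 19.5% rose and 2.5%, 4.56% and 11.4% fell. The part of these marker changes in the results on the Wnt members was not tested. Each array read a whole culture, so more cells that express a gene and more RNA per cell cannot be told apart.

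In all, 13 of the 31 tested members changed in at least 1 mutant genotype against wild type, and 16 changed in none of the 7 comparisons made without a replicate block. All 3 comparisons with wild type use the same wild type arrays. In Ring1B deficient cells 2 members rose (Wnt11 and Dkk1), where 4.68% of all tested genes rose, and 1 fell (Fzd2), where 2.5% fell. In Eed deficient cells 6 rose (Wnt4, Wnt7b, Wnt11, Fzd6, Lrp6 and Dkk1), where 10.8% of all genes rose, and 1 fell (Fzd7), where 4.56% fell. In double deficient cells 10 rose, where 19.5% of all genes rose, and 0 fell by the limma model, where 11.4% of all genes fell. At an unadjusted p under 0.05 also 0 members were lower, beside 16% of all genes. Those 10 were Wnt4, Wnt5a, Wnt6, Wnt7b, Wnt10a, Wnt11, Fzd1, Fzd4, Fzd6 and Dkk1. Only Wnt11 and Dkk1 among the tested members rose in every mutant genotype. As shares, 6.45%, 19.4% and 32.3% of the tested members rose in Ring1B deficient, Eed deficient and double deficient cells. The median log2 change of the 31 members was 0.02 in cells lacking Ring1B, 0.30 in those lacking Eed and 0.45 in those lacking both, beside -0.01, 0.03 and 0.10 over all tested genes. In double deficient cells 25 of 31 members had a log2 change above 0, which is 80.6%, beside 57.4% of all tested genes. Without Eed deficient replicate 3, 4 members rose and 0 fell in Eed deficient cells, where 7.27% of all genes rose and 2.39% fell. Of all genes, 1509 rose and 637 fell in Eed deficient and 2723 rose and 1589 fell in double deficient cells. With each array centred on its median these were 1123 and 1294 in Eed deficient and 1875 and 2934 in double deficient cells, and the median change over all genes was then -0.10 in both. With that centring 6 members rose and 1, Fzd7, fell in double deficient cells.

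**Figure D1:**
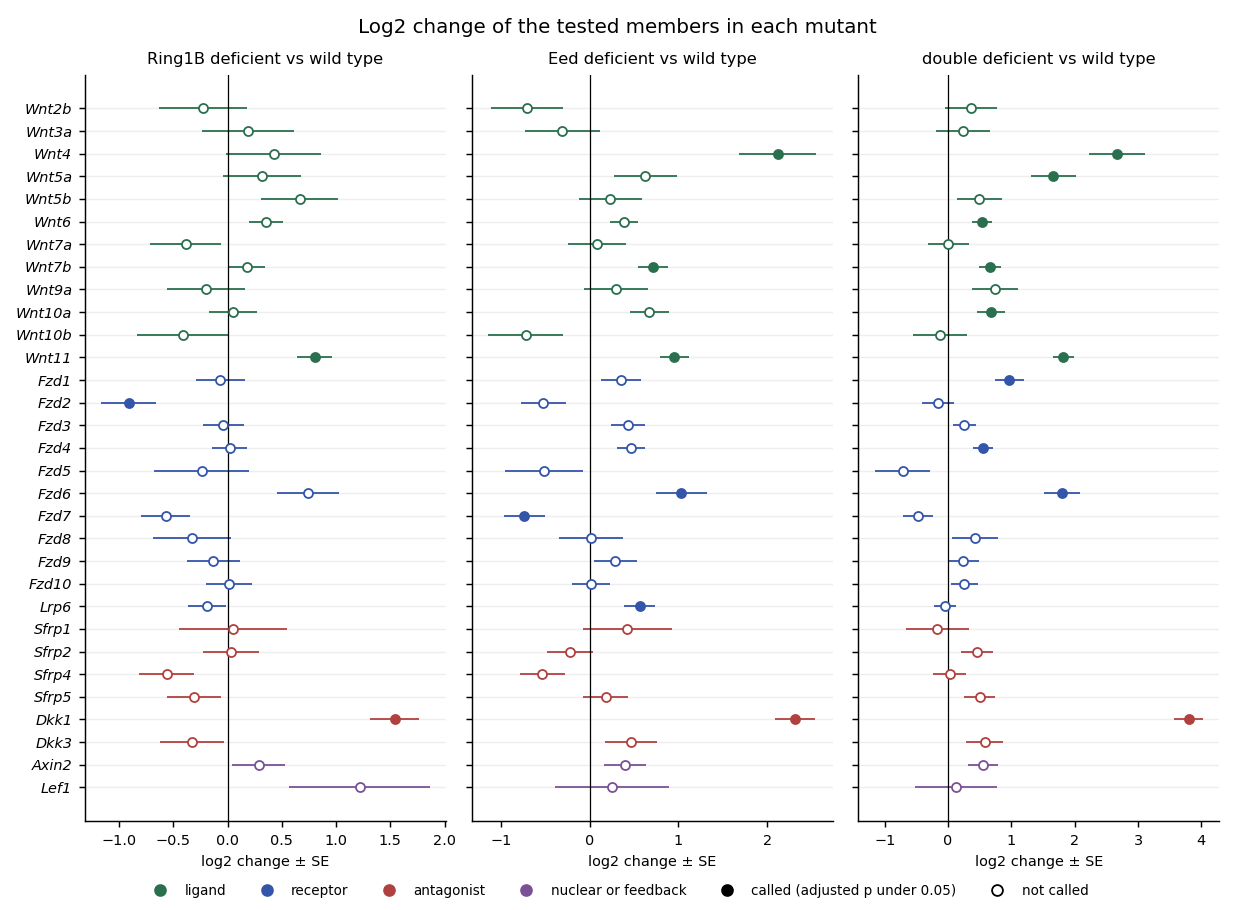
Log2 change of each of the 31 tested members against wild type, with its standard error, in Ring1B deficient, Eed deficient and double deficient cells, with colours for the members' roles and filled circles for an adjusted p under 0.05. The filled circles number 3, 7 and 10 from left to right, Dkk1 lies farthest to the right in each panel, and the axes differ in range.

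Of the 12 tested ligands, 1 rose in cells lacking Ring1B, 3 in those lacking Eed and 6 in those lacking both. Wnt4, a ligand needed for kidney and gonad development, rose in Eed deficient and double deficient cells. Its arrays, in order of replicate, gave 16.8, 32.7 and 11.8 in wild type cells, 34.6, 49.8 and 10.4 in those lacking Ring1B, 70.0, 161 and 85.5 in those lacking Eed and 116, 198 and 139 in those lacking both. Each array of Eed deficient and double deficient cells lay above every wild type and Ring1B deficient array, while wild type and Ring1B deficient arrays overlapped. The mean signal was 5.17 times that of wild type in Eed deficient and 7.39 times in double deficient cells, log2 changes of 2.12 (SE 0.44, adjusted p = 0.00533) and 2.67 (SE 0.44, adjusted p = 0.000511). In Ring1B deficient cells the log2 change was 0.42 (SE 0.44, adjusted p = 0.658). A second Wnt4 probe set gave 11.1 ± 3.52 in wild type cells, 10.1 ± 3.23 in those lacking Ring1B, 26.9 ± 3.54 in those lacking Eed and 39.7 ± 6.43 in those lacking both, and tested on its own it too rose in Eed deficient and double deficient cells. In the tested set replicate 2 was the highest Wnt4 array of every genotype, but in the second it was the lowest of Eed deficient and of double deficient cells.

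Wnt11, which guides cell movements in the gastrulating embryo and acts in heart and kidney formation, rose in every mutant genotype. Its arrays gave 20.2, 29.9 and 26.4 in wild type cells, 49.8, 44.4 and 49.0 in those lacking Ring1B, 55.8, 56.6 and 48.5 in those lacking Eed and 97.1, 98.3 and 111 in those lacking both. The wild type arrays lay below all others, the arrays of the single mutants overlapped with each other, and the double deficient arrays lay above all others. The log2 changes against wild type were 0.80 (SE 0.16, adjusted p = 0.00877) in Ring1B deficient, 0.96 (SE 0.16, adjusted p = 0.00146) in Eed deficient and 1.82 (SE 0.16, adjusted p = 3.62e-06) in double deficient cells. Double deficient cells also had more Wnt11 signal than Eed deficient cells, by 0.87 (SE 0.16, adjusted p = 0.0176), and than Ring1B deficient cells, by 1.02 (SE 0.16, adjusted p = 0.00117). The rise over Eed deficient cells was not called without Eed deficient replicate 1, double deficient replicate 1 or double deficient replicate 3, with an adjusted p of 0.0551, 0.0629 and 0.109. The rise in Ring1B deficient cells had an adjusted p of 0.0588 when those arrays and the wild type arrays were fitted alone.

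Wnt7b, a ligand of lung and placenta development, rose in both genotypes without Eed. Its arrays gave 56.6, 72.6 and 61.0 in wild type cells, 68.3, 71.2 and 76.8 in those lacking Ring1B, 93.2, 136 and 95.1 in those lacking Eed and 95.5, 109 and 105 in those lacking both. Wild type and Ring1B deficient arrays overlapped, and every array of the other genotypes lay above them. The log2 change was 0.71 (SE 0.17, adjusted p = 0.0114) in Eed deficient and 0.66 (SE 0.17, adjusted p = 0.009) in double deficient cells, which did not differ beyond the spread (log2 difference -0.05 (adjusted p = 0.917)). The rise in Eed deficient cells was not called without Eed deficient replicate 2, the highest array (adjusted p = 0.0541). The rise in double deficient cells was not called with arrays centred on their medians (adjusted p = 0.0521). A dimmer Wnt7b probe set, tested on its own, was called in neither, with log2 changes of 0.58 (adjusted p = 0.0794) and 0.58 (adjusted p = 0.0505). It gave 10.8 to 13.5 in wild type cells, 16.2 to 20.8 in those lacking Ring1B, 17.3 to 23.7 in those lacking Eed and 16.5 to 22.9 in those lacking both, so there the wild type arrays lay below all others and the Ring1B deficient arrays overlapped with those of the other mutants.

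Wnt5a, a ligand that acts mainly outside the β-catenin branch, rose in double deficient cells. Its tested probe set gave 5.89 to 24.9 in wild type cells, 15.9 to 25.4 in those lacking Ring1B, 16.7 to 31.3 in those lacking Eed and 37.7 to 79.4 in those lacking both. The double deficient arrays lay above those of every other genotype, which overlapped with each other, and the log2 change against wild type was 1.66 (SE 0.36, adjusted p = 0.0033). Its probe sets did not give the same calls: 2 of the 3 kept ones rose in double deficient cells when tested on their own, and 1 of them also rose in Eed deficient cells. The tested probe set had a log2 change of 0.63 (adjusted p = 0.266) in Eed deficient cells. The third, from 7.92 to 13.8 in wild type to 9.71 to 30.8 in double deficient cells, was called in neither.

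Wnt6 and Wnt10a, ligands of epithelial and skin appendage development, rose in double deficient cells by small amounts. Wnt6 gave 28.9 to 36.1 in wild type cells, 40.5 to 43.1 in those lacking Ring1B, 41.3 to 44.4 in those lacking Eed and 42.4 to 51.6 in those lacking both, a log2 change of 0.54 (SE 0.16, adjusted p = 0.018) in double deficient cells. The wild type arrays of Wnt6 lay below those of every mutant genotype, though the changes in Ring1B deficient and Eed deficient cells were not called (adjusted p = 0.213 and 0.115). Wnt10a gave 11.8 to 17.4 in wild type cells, 12.8 to 17.5 in those lacking Ring1B, 25.0 to 30.6 in those lacking Eed and 22.3 to 35.2 in those lacking both, a log2 change of 0.68 (SE 0.22, adjusted p = 0.0293) in double deficient cells and 0.67 (adjusted p = 0.0514) in Eed deficient cells. Neither rise was called with quantile normalization (adjusted p = 0.106 for Wnt6 and 0.110 for Wnt10a) or with centring on the median (0.102 and 0.0900). That of Wnt6 was also lost when replicate 1 or 2 of wild type or replicate 1 or 3 of double deficient cells was left out (adjusted p from 0.0507 to 0.067). That of Wnt10a was lost when replicate 1 of wild type or replicate 2 or 3 of double deficient cells was left out (adjusted p from 0.0512 to 0.126).

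The other 6 tested ligands were called in no comparison. Wnt3a, a canonical ligand of the primitive streak, gave 4.56 to 14.1 in wild type cells, 8.30 to 15.1 in those lacking Ring1B, 2.97 to 13.3 in those lacking Eed and 3.86 to 18.2 in those lacking both. Wnt2b gave 10.6 to 13.0 in wild type cells, 2.75 to 14.7 in those lacking Ring1B, 2.61 to 13.8 in those lacking Eed and 14.3 to 21.7 in those lacking both, and Wnt5b gave 5.61 to 7.52 in wild type cells, 9.92 to 19.0 in those lacking Ring1B, 2.34 to 13.9 in those lacking Eed and 7.96 to 13.9 in those lacking both. None of these 3 gave more than 21.7 on any array. Wnt10b gave 11.1 to 24.8 in wild type cells, 4.27 to 15.0 in those lacking Ring1B, 4.40 to 11.3 in those lacking Eed and 4.83 to 22.4 in those lacking both. Wnt7a, whose promoter is shown above, gave 16.8 to 52.5 in wild type cells, 15.3 to 25.4 in those lacking Ring1B, 21.6 to 32.7 in those lacking Eed and 21.9 to 31.4 in those lacking both, with wild type replicate 2 the highest at 52.5. Wnt9a gave 11.4 to 33.9 in wild type cells, 9.24 to 29.2 in those lacking Ring1B, 20.3 to 30.6 in those lacking Eed and 27.0 to 53.3 in those lacking both, with a log2 change of 0.74 (SE 0.36, adjusted p = 0.131) in double deficient cells. Without wild type replicate 2 the adjusted p of that Wnt9a change was 0.0463.

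**Figure D2:**
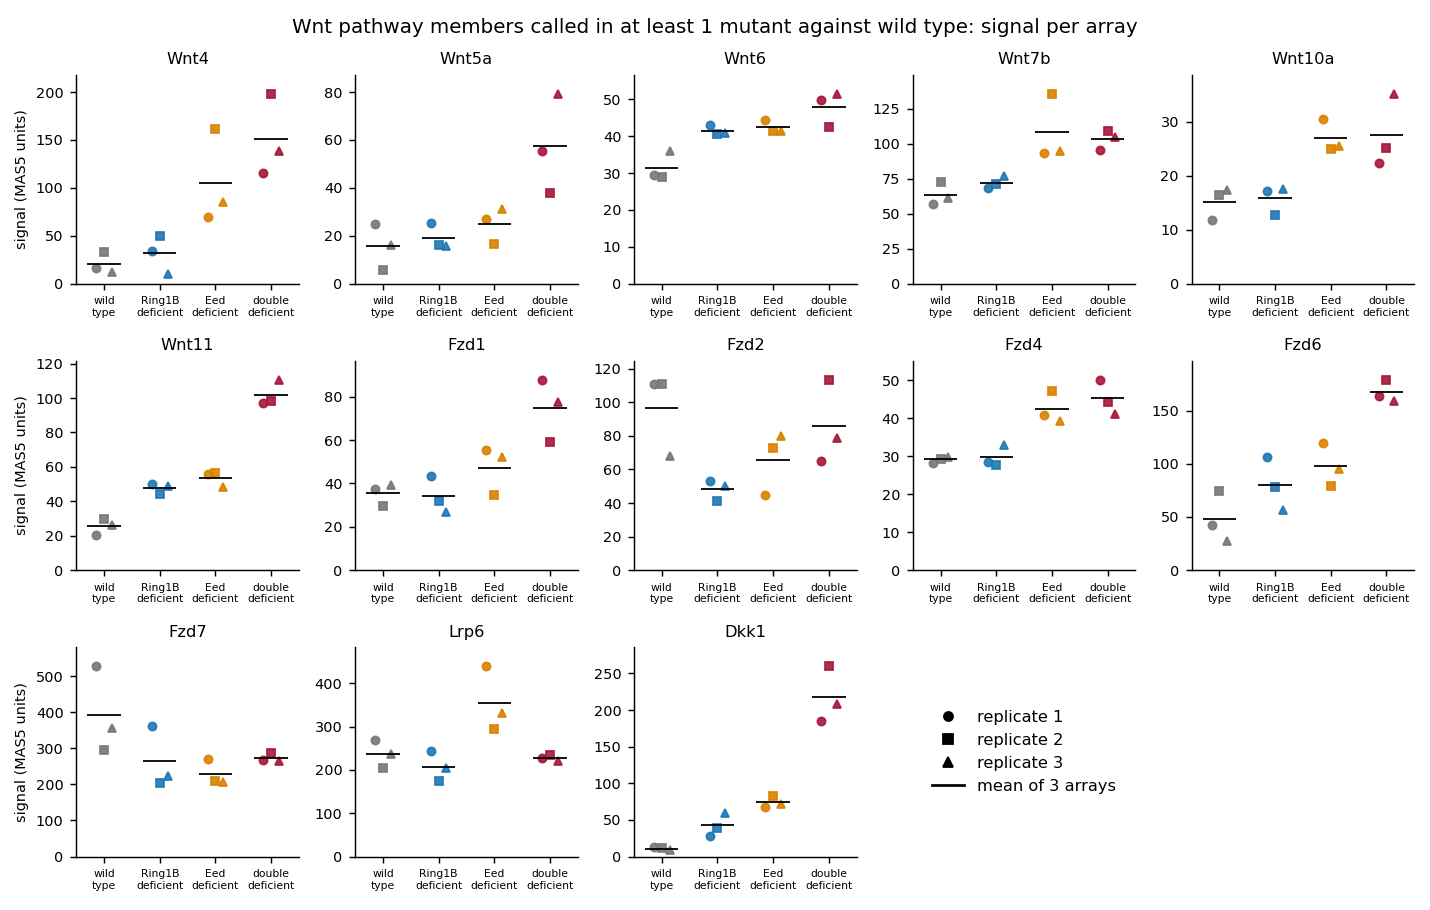
Signal in MAS5 units on each of the 12 arrays for the 13 members called in at least 1 mutant against wild type, with 1 point per array, a shape for each replicate number and a line at the mean of 3 arrays. Every double deficient array lies above all others for Dkk1 (185 to 259.5), Wnt11 (97.1 to 111), Wnt5a, Fzd1 and Fzd6. By mean, Fzd2 is lowest in Ring1B deficient and Lrp6 highest in Eed deficient cells.

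Of the 11 tested receptors, 1 fell in Ring1B deficient, 2 rose and 1 fell in Eed deficient, and 3 rose in double deficient cells. Fzd6, a receptor known for aligning hairs in the skin, rose in Eed deficient and double deficient cells. Its arrays gave 41.98, 74.2 and 27.7 in wild type cells, 106, 78.5 and 56.6 in those lacking Ring1B, 119, 79.1 and 95.0 in those lacking Eed and 164, 179 and 159 in those lacking both. The double deficient arrays lay above all others, and those of Eed deficient cells lay above those of wild type. The log2 change was 1.03 (SE 0.29, adjusted p = 0.026) in Eed deficient and 1.79 (SE 0.29, adjusted p = 0.000419) in double deficient cells, and 0.74 (SE 0.29, adjusted p = 0.15) in Ring1B deficient cells, where it was not called. All 3 kept Fzd6 probe sets rose in double deficient cells when tested on their own, with log2 changes from 1.12 to 1.79. In Eed deficient cells only the tested set of the 3 was called, and the other two had log2 changes of 1.04 (adjusted p = 0.0561) and 0.63 (adjusted p = 0.167). The rise in Eed deficient cells was lost when replicate 1 or 3 of either wild type or Eed deficient cells was left out (adjusted p from 0.0687 to 0.111). That in Ring1B deficient cells was called without wild type replicate 2 (log2 change 1.08, adjusted p = 0.0254).

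Fzd1 and Fzd4 rose in double deficient cells. Fzd1 gave 29.6 to 39.3 in wild type cells, 26.9 to 43.5 in those lacking Ring1B, 34.4 to 55.2 in those lacking Eed and 59.1 to 87.7 in those lacking both, a log2 change of 0.97 (SE 0.22, adjusted p = 0.00505). Its double deficient arrays lay above all others, and the arrays of the other 3 genotypes overlapped. Fzd4, which also serves as the receptor of Norrin in retinal vessels, gave 28.4 to 29.9 in wild type cells, 27.8 to 33.1 in those lacking Ring1B, 39.4 to 47.3 in those lacking Eed and 41.3 to 50.1 in those lacking both. Its arrays in Eed deficient and double deficient cells lay above those of wild type and Ring1B deficient cells, with log2 changes of 0.47 (SE 0.16, adjusted p = 0.0621) and 0.55 (SE 0.16, adjusted p = 0.0182), of which the second was called. A dimmer Fzd4 probe set also rose in double deficient cells when tested on its own, by 1.04 (adjusted p = 0.00731). The call of the brighter Fzd4 probe set was lost without double deficient replicate 1 (adjusted p = 0.0765), with quantile normalization (0.150) and with centring on the median (0.119).

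Fzd2, Fzd7 and Lrp6 did not follow the order seen for Wnt11. Fzd2 gave 111, 111 and 67.9 in wild type cells, 53.1, 41.4 and 50.0 in those lacking Ring1B, 44.7, 72.8 and 79.9 in those lacking Eed and 65.3, 113 and 78.9 in those lacking both. The Ring1B deficient arrays lay below all wild type arrays, a log2 change of -0.91 (SE 0.25, adjusted p = 0.0459), while those of Eed deficient and double deficient cells overlapped with wild type, with log2 changes of -0.53 (SE 0.25, adjusted p = 0.187) and -0.16 (SE 0.25, adjusted p = 0.661). Of the 3 Fzd2 probe sets, each tested on its own, 1 fell in Ring1B deficient cells and 1 in Eed deficient cells. Of all kept probe sets, 5.02% and 12.4% changed there in either direction. With the mean over the 3 probe sets Fzd2 had a log2 change of -0.78 in Eed deficient cells (adjusted p = 0.0291). The tested probe set carries the _s_ suffix that Affymetrix gives to sets whose probes can match more than 1 transcript. The fall in Ring1B deficient cells was not called without any 1 of 8 arrays, wild type replicates 1 and 2, the 3 Ring1B deficient arrays, Eed deficient replicate 3 and double deficient replicates 1 and 3 (adjusted p from 0.0510 to 0.144), nor with quantile normalization (0.0584).

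Fzd7, a receptor with a known role in ES cell self-renewal, gave 527, 296 and 356 in wild type cells, 362, 205 and 224 in those lacking Ring1B, 271, 209 and 207 in those lacking Eed and 267, 288 and 265 in those lacking both. The Eed deficient and double deficient arrays lay below all wild type arrays, with log2 changes of -0.74 (SE 0.23, adjusted p = 0.0447) and -0.47 (SE 0.23, adjusted p = 0.134), of which the first was called, and the Ring1B deficient arrays overlapped with wild type. Wild type replicate 1 was the highest of all. Without it the change in Eed deficient cells was -0.51 with an adjusted p of 0.171, and without any 1 of 7 further arrays the adjusted p lay between 0.0538 and 0.138. Those arrays were wild type replicate 3, Ring1B deficient replicate 3, Eed deficient replicates 2 and 3 and all double deficient ones. With adjustment over all kept probe sets in place of genes, the adjusted p of the Fzd7 change in Eed deficient cells was 0.0505, and it was not called.

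Lrp6, the co-receptor that Dkk1 binds, gave 269.9, 204 and 238 in wild type cells, 243, 175 and 204 in those lacking Ring1B, 439, 295 and 332 in those lacking Eed and 227, 235 and 220.2 in those lacking both. The Eed deficient arrays lay above every array of the other genotypes, and those overlapped with each other. Lrp6 rose in Eed deficient cells by 0.56 (SE 0.17, adjusted p = 0.0422) and had a log2 change of -0.05 (SE 0.17, adjusted p = 0.849) in double deficient cells. The difference between double deficient and Eed deficient cells was -0.61 (SE 0.17, adjusted p = 0.0857), which was not called. The rise was not called without any 1 of 8 arrays (adjusted p from 0.0548 to 0.141), namely wild type replicate 2 or 3, Ring1B deficient replicate 3, Eed deficient replicate 1 or 3 or any double deficient one, nor with centring on the median (0.0954). A dimmer Lrp6 probe set, tested on its own, was not called in Eed deficient cells, with a log2 change of 0.44 (adjusted p = 0.147), though there too the Eed deficient arrays (30.9 to 33.8) lay above all wild type arrays (21.2 to 25.4).

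The other 5 tested receptors were called in no comparison. Fzd5 gave 361, 228 and 271 in wild type cells, 321, 127 and 327 in those lacking Ring1B, 321, 87.3 and 263 in those lacking Eed and 204, 115 and 205 in those lacking both, and replicate 2 was the lowest array in every genotype. Its double deficient arrays lay below all wild type arrays, with a log2 change of -0.72 (SE 0.44, adjusted p = 0.235). The adjusted p of that Fzd5 change was 0.0476 with only the compared groups fitted and 0.00936 with a replicate block. Fzd3 gave 68.2 to 83.8 in wild type cells, 61.0 to 88.4 in those lacking Ring1B, 79.8 to 127 in those lacking Eed and 87.4 to 100.4 in those lacking both, and Fzd10 gave 35.4 to 54.5 in wild type cells, 40.2 to 57.9 in those lacking Ring1B, 41.4 to 54.8 in those lacking Eed and 45.0 to 69.5 in those lacking both. Fzd9 gave 17.8 to 36.8 in wild type cells, 21.6 to 30.1 in those lacking Ring1B, 33.1 to 42.9 in those lacking Eed and 29.2 to 41.4 in those lacking both, and Fzd8 gave 9.02 to 26.1 in wild type cells, 7.42 to 12.9 in those lacking Ring1B, 6.18 to 22.8 in those lacking Eed and 18.5 to 22.8 in those lacking both. The largest log2 changes against wild type among these 4 were 0.43, of Fzd3 in Eed deficient cells, and 0.43, of Fzd8 in double deficient cells.

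Of the 6 tested antagonists, Dkk1 alone was called against wild type through its tested probe set. Dkk1 blocks canonical signalling by binding Lrp5 and Lrp6 and is needed for head formation. Its arrays gave 13.1, 11.1 and 8.58 in wild type cells, 28.6, 39.6 and 59.9 in those lacking Ring1B, 68.0, 83.0 and 71.2 in those lacking Eed and 185, 259.5 and 208 in those lacking both. The groups of the 4 genotypes did not overlap anywhere and stood in the order wild type, Ring1B deficient, Eed deficient and double deficient. The mean signal was 3.90, 6.77 and 19.9 times that of wild type in the 3 mutant genotypes, with wild type near the background. The log2 changes were 1.54 (SE 0.23, adjusted p = 0.000952), 2.32 (SE 0.23, adjusted p = 2.00e-05) and 3.80 (SE 0.23, adjusted p = 1.11e-07). Double deficient cells lay above Eed deficient cells by 1.48 (SE 0.23, adjusted p = 0.00623) and above Ring1B deficient cells by 2.26 (SE 0.23, adjusted p = 5.78e-05). The step from Ring1B deficient to Eed deficient cells was 0.78 (SE 0.23). In the model without a replicate block it was not called (adjusted p = 0.0723), though without Ring1B deficient replicate 3 its adjusted p was 0.0388. With the replicate number as a block it was called (adjusted p = 0.0252), where 8.17% of all genes were higher. A second Dkk1 probe set, from 1.58 to 2.16 in wild type to 55.7 to 74.8 in double deficient cells, rose in each mutant as well, with log2 changes of 1.53, 2.01 and 3.31. The calls of Dkk1 against wild type and of double deficient cells against each single mutant held without any 1 array.

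Sfrp1, which binds Wnt ligands and receptors, depended on the probe set that was read. The brightest and therefore tested one gave 99.1, 398 and 244 in wild type cells, 146, 403 and 183 in those lacking Ring1B, 203, 531 and 222 in those lacking Eed and 159, 299 and 143 in those lacking both, with replicate 2 the highest in every genotype and a log2 change of -0.17 (SE 0.50, adjusted p = 0.828) in double deficient cells. The other 4 Sfrp1 probe sets were each tested on their own with adjustment over the 25249 kept probe sets. All rose in double deficient cells, where 26.1% of the kept probe sets changed in either direction. The log2 changes of these 4 were 0.70 (adjusted p = 0.0303), 0.79 (adjusted p = 0.0174), 0.79 (adjusted p = 0.0244) and 0.91 (adjusted p = 0.00578). In the last of these the arrays gave 107, 175 and 107 in wild type cells, 176, 165 and 114 in those lacking Ring1B, 259, 218 and 247 in those lacking Eed and 229, 285 and 218 in those lacking both. Every Eed deficient and double deficient array of that set lay above all its wild type arrays. It rose in Eed deficient cells too, by 0.90 (adjusted p = 0.0125), where 12.4% of the kept probe sets changed in either direction. Which of the 5 reads the Sfrp1 transcript best was not tested.

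**Figure D3:**
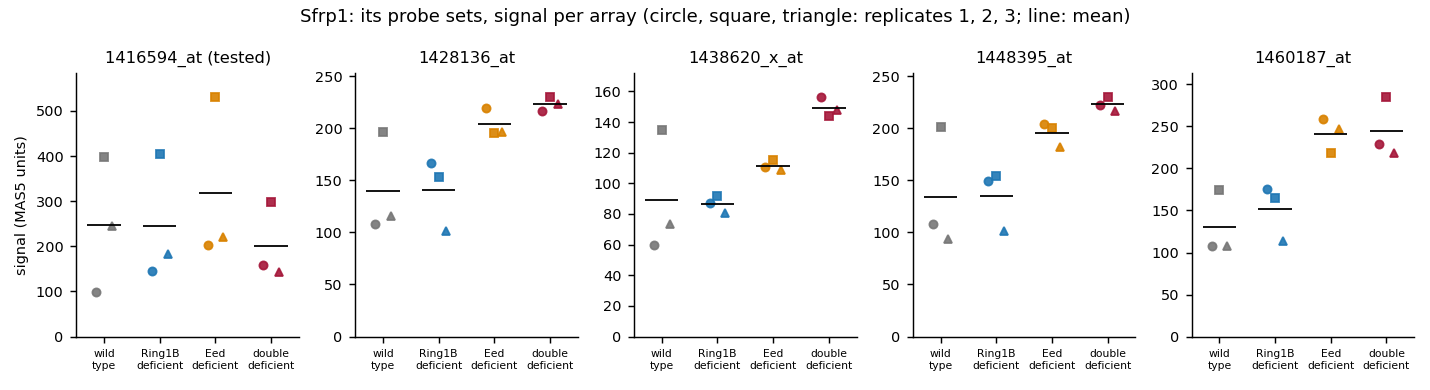
Signal in MAS5 units on each array for the 5 Sfrp1 probe sets by genotype, with circle, square and triangle for replicates 1, 2 and 3 and a line at the mean. In the tested set at the left replicate 2 is highest in each genotype, and in the other 4 sets the double deficient arrays lie above every wild type array.

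The other 4 tested antagonists were not called against wild type. Sfrp2 gave 58.5 to 86.7 in wild type cells, 54.4 to 112 in those lacking Ring1B, 49.7 to 87.3 in those lacking Eed and 90.2 to 117 in those lacking both, and Sfrp4 gave 73.3 to 119 in wild type cells, 47.5 to 76.8 in those lacking Ring1B, 54.1 to 76.0 in those lacking Eed and 63.2 to 121 in those lacking both. Sfrp5 gave 22.5 to 35.3 in wild type cells, 15.3 to 23.5 in those lacking Ring1B, 23.6 to 39.0 in those lacking Eed and 29.5 to 50.8 in those lacking both, and Dkk3, a relative of Dkk1 whose link to Wnt signalling is less clear, gave 21.2 to 51.3 in wild type cells, 19.5 to 32.4 in those lacking Ring1B, 45.2 to 53.5 in those lacking Eed and 34.0 to 66.7 in those lacking both. Sfrp5 and Dkk3 were higher in double deficient than in Ring1B deficient cells, by 0.81 (SE 0.25, adjusted p = 0.0374) and 0.90 (SE 0.29, adjusted p = 0.0451), and their arrays in those 2 genotypes did not overlap. Leaving out 1 array ended the call of Sfrp5 for 5 arrays (Ring1B deficient replicates 1, 2 and 3 and double deficient replicates 1 and 3, adjusted p from 0.0523 to 0.156). It ended that of Dkk3 for 8 arrays (wild type replicate 2, the 3 Ring1B deficient arrays, Eed deficient replicates 1 and 3 and double deficient replicates 2 and 3, adjusted p from 0.0503 to 0.166).

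Axin2 and Lef1 are themselves known targets of β-catenin in many cell types, and neither was called in any comparison made without a replicate block. Axin2, a scaffold that limits the pathway by feedback, gave 38.2, 30.6 and 34.8 in wild type cells, 59.9, 30.4 and 43.2 in those lacking Ring1B, 57.2, 34.6 and 51.8 in those lacking Eed and 55.6, 42.6 and 62.4 in those lacking both. Its double deficient arrays lay above all wild type arrays, with a log2 change of 0.55 (SE 0.24, adjusted p = 0.0952). With a replicate block, an alternative setting there, the adjusted p of that Axin2 change was 0.0166, where 25% of all genes rose. Lef1 gave 104, 17.9 and 35.0 in wild type cells, 205, 44.4 and 116 in those lacking Ring1B, 133, 21.2 and 41.6 in those lacking Eed and 61.7, 31.0 and 49.3 in those lacking both. Its arrays spread widely within each genotype, with replicate 1 highest and replicate 2 lowest in every one, and the log2 changes were 1.22 (SE 0.65, adjusted p = 0.318) in Ring1B deficient, 0.25 (adjusted p = 0.84) in Eed deficient and 0.13 (adjusted p = 0.902) in double deficient cells. Between arrays of the same number Lef1 was higher in Ring1B deficient than in Eed deficient cells in all 3 pairs. The replicate number is used as a block for that comparison because its same-numbered arrays varied together. That choice was made from these same data, and the main model had no block. With it Lef1 was called lower in Eed deficient than in Ring1B deficient cells, by -0.97 (adjusted p = 0.0168). As an alternative setting elsewhere, the block called Lef1 higher in Ring1B deficient than in wild type cells, by 1.22 (adjusted p = 0.00287, 9.12% of all genes higher). Lef1 was then also lower in double deficient than in Ring1B deficient cells, by -1.09 (adjusted p = 0.00344, 11.8% of all genes lower). Its interaction with the block was -1.34 (adjusted p = 0.0245, 5.14% of all genes lower).

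Replicate 2 stood on the same side of the mean of replicates 1 and 3 in all 4 genotypes for the tested probe set of 13 of the 31 members, or 41.9%, beside 40.5% of all tested genes. In these tested sets the log2 difference of replicate 2 from that mean was -1.68 to -0.45 for Fzd5 and -1.69 to -0.74 for Lef1, and 0.97 to 1.32 for Sfrp1 and 0.63 to 1.15 for Wnt4. Other probe sets of Wnt4 and Sfrp1 did not all keep that order. The labels do not say what a replicate number shares.

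**Figure D4:**
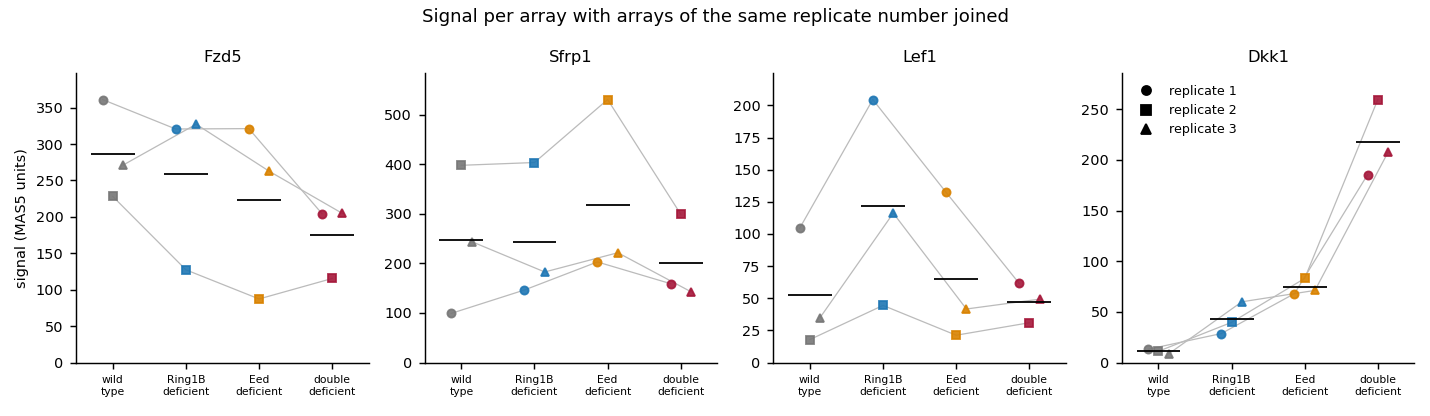
Signal in MAS5 units of the tested probe sets of Fzd5, Sfrp1, Lef1 and Dkk1 on each array, with grey lines joining the arrays of the same replicate number and black lines at the mean of each genotype. Replicate 2 is lowest in every genotype for Fzd5 and Lef1 and highest for Sfrp1, while the Dkk1 lines rise together from 8.58 to 13.1 in wild type to 185 to 259.5 in double deficient cells.

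The remaining 11 members were not tested in the main model. Tcf7 had no probe set under its own symbol alone, and 10 others had none above the filter: Wnt1, Wnt2, Wnt3, Wnt8a, Wnt8b, Wnt9b, Wnt16, Lrp5, Dkk2 and Wif1. Those 10 entered only the alternative fit with no filter, which held 41 members, and their results there are not given here. Over all their probe sets and arrays these 10 gave 0.25 to 22.1 signal units, so differences among them lie near the background. The values of Dkk2 were 0.731 to 1.44 in wild type, 3.10 to 8.68 in cells lacking Ring1B, 1.95 to 9.68 in those lacking Eed and 7.94 to 16.3 in those lacking both. Those of Wif1 were 2.22 to 5.98, 1.73 to 7.26, 8.46 to 11.9 and 7.85 to 15.99 in the same order, and those of Wnt3 were 0.25 to 3.04, 0.331 to 3.84, 1.77 to 6.10 and 6.19 to 7.29. Lrp5, the other co-receptor, gave 6.99 to 15.7 over all genotypes. Since the filter let a member pass through the genotype where it was high, the counts above describe the members that passed and not all 42.

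The double deficient cells were then set against each single mutant. Against Eed deficient cells 2 members rose, Wnt11 and Dkk1, where 1.07% of all tested genes rose. By the limma model 0 fell, where 0.822% of all genes fell. At an unadjusted p under 0.05, 1 member, Lrp6, was lower, beside 6.83% of all genes. Against Ring1B deficient cells 9 rose, where 12.7% of all genes rose, and 0 fell, where 5.98% of all genes fell. At an unadjusted p under 0.05 also 0 members were lower, beside 11.6% of all genes. The 9 were Wnt4 (2.24), Wnt5a (1.34), Wnt11 (1.02), Fzd1 (1.04), Fzd4 (0.53), Fzd6 (1.05), Sfrp5 (0.81), Dkk1 (2.26) and Dkk3 (0.90), with log2 changes in parentheses. These 2 comparisons share the double deficient arrays. Of all genes, 1781 rose and 836 fell against Ring1B deficient cells, with 1300 and 954 after quantile normalization and 1110 and 1889 with centring on the median. Against Eed deficient cells these counts were 150 and 115, with 150 and 189 after quantile normalization and 127 and 209 with centring. The count of 9 fell to 5 without Ring1B deficient replicate 3 or double deficient replicate 1, where 7.82% and 8.75% of all genes rose. It fell to 4 without double deficient replicate 3, where 7.03% of all genes rose. Wnt4, Wnt11, Fzd1 and Dkk1 were called whichever array was left out. Wnt5a was not called without Ring1B deficient replicate 2 or 3 or double deficient replicate 1 or 3 (adjusted p from 0.0545 to 0.0950). Fzd4 was not called without Ring1B deficient replicate 1 or 2 or any double deficient array (0.0588 to 0.119), and Fzd6 without Ring1B deficient replicate 3 or any double deficient array (0.0562 to 0.0964). With quantile normalization or centring on the median Fzd4, Sfrp5 and Dkk3 were not called (0.0812 to 0.237).

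The single mutants were compared without and with a replicate block. Without it, 2 members were higher in Eed deficient than in Ring1B deficient cells, where 3.37% of all genes were higher. These were Wnt4, by 1.69 (SE 0.44, adjusted p = 0.0437), and Lrp6, by 0.75 (SE 0.17, adjusted p = 0.0269). In Eed deficient cells 0 members were lower, where 1.11% of all genes were lower. At an unadjusted p under 0.05 also 0 members were lower, beside 6.02% of all genes. In this comparison the same-numbered arrays varied together, and with the replicate number as a block 5 members were higher (8.17% of all genes) and 1 lower (4.03%). The 5 were Wnt4 (adjusted p = 0.000523), Lrp6 (0.00148), Wnt7b (0.0253), Dkk1 (0.0252) and Dkk3 (0.0439), and the lower one was Lef1, as given above. Without the block, Wnt4 was no longer called when any 1 of 8 arrays was left out (adjusted p from 0.0511 to 0.176): wild type replicate 3, Ring1B deficient replicates 1 and 3, Eed deficient replicates 2 and 3 and the 3 double deficient arrays. Lrp6 was no longer called when replicate 2 or 3 of Ring1B deficient or replicate 1 or 3 of Eed deficient cells was left out (0.0742 to 0.0973). Of all genes, 471 were higher and 155 lower, and with centring on the median 270 and 264.

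The interaction is the log2 difference made by losing Ring1B in cells without Eed less the log2 difference it made in cells with Eed. It asks whether the loss of both complexes changed log2(signal + 5) by more or less than the sum of the single log2 changes. An interaction of 0 therefore stands for ratios of signal + 5 that multiply, and not for differences of signal that add up. Of the 31 members 0 were called in the limma model, where 1.9% of all tested genes were, and 5 had an unadjusted p under 0.05, all with an interaction above 0: Wnt2b, Fzd1, Fzd2, Fzd7 and Sfrp4. Those 5 are 16.1% of the members, beside 8.68% of all genes with such a p and an interaction above 0 and 7.9% with one below 0. The interaction of Dkk1 was -0.06 (SE 0.32, adjusted p = 0.948), that of Wnt11 0.06 (SE 0.23, adjusted p = 0.911) and that of Wnt4 0.12 (SE 0.62, adjusted p = 0.939). The smallest adjusted p among the members was that of Fzd2, 1.27 (SE 0.36, adjusted p = 0.0911), and with the mean over its 3 probe sets it was 1.53 (adjusted p = 0.0248). An adjusted p above the threshold does not show that the log2 changes add up.

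Other genes of the pathway were read from 5 lists, whose counts are to be read beside the shares of all genes given above. Of 13 tested genes of Wnt secretion and the extracellular space, 1 rose and 1 fell in Ring1B deficient, 8 rose in Eed deficient, and 8 rose in double deficient cells. The median log2 change of the list was 0.06, 0.88 and 0.98 in these genotypes. Wls, the carrier that brings Wnt ligands to the cell surface, gave 36.8, 41.0 and 27.3 in wild type cells, 44.0, 36.5 and 40.1 in those lacking Ring1B, 71.3, 126 and 174 in those lacking Eed and 223, 291 and 266 in those lacking both, with the double deficient arrays above all others and a log2 change of 2.73 (SE 0.26, adjusted p = 5.45e-06). Frzb, another Sfrp-type antagonist, gave 1.81 to 22.7 in wild type cells, 13.5 to 33.0 in those lacking Ring1B, 61.3 to 70.9 in those lacking Eed and 83.8 to 96.5 in those lacking both, a log2 change of 3.14 (SE 0.43, adjusted p = 0.00014). Dkkl1, a Dkk-like gene, and Igfbp4, a growth factor binding protein that can also hinder Wnt receptors, had log2 changes of 2.26 (adjusted p = 0.000528) and 2.09 (adjusted p = 3.48e-05) in double deficient cells.

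Of 7 tested other receptors and their regulators, 1 rose in Ring1B deficient, 2 rose and 1 fell in Eed deficient, and 4 rose and 1 fell in double deficient cells. Ror2, a receptor of Wnt5a, gave 22.8 to 25.2 in wild type cells, 46.4 to 72.3 in those lacking Ring1B, 53.6 to 66.0 in those lacking Eed and 64.0 to 77.5 in those lacking both and rose in each mutant, by 1.04, 1.18 and 1.41 on the log2 scale. Kremen1, a partner of Dkk1 at the co-receptors, and Lgr6, a receptor of R-spondins, rose in double deficient cells by 1.11 (adjusted p = 0.0021) and 0.85 (adjusted p = 0.0122). Ptk7, a co-receptor of the polarity branch, had a log2 change of -0.73 (adjusted p = 0.012) there.

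Of 26 tested genes of β-catenin signal transduction, 2 fell in Ring1B deficient, 1 rose and 3 fell in Eed deficient, and 3 rose and 6 fell in double deficient cells. The list's median log2 change in double deficient cells was 0.04, beside 0.10 over all genes. Tcf7l2, a DNA-binding partner of β-catenin and relative of Lef1, gave 31.1 to 37.0 in wild type cells, 39.8 to 66.0 in those lacking Ring1B, 74.5 to 79.8 in those lacking Eed and 128 to 151 in those lacking both, a log2 change of 1.88 (SE 0.17, adjusted p = 4.82e-06). Dvl2, which carries the signal from Frizzled receptors, gave 102 to 142 in wild type cells, 69.3 to 91.4 in those lacking Ring1B, 68.2 to 82.6 in those lacking Eed and 45.2 to 60.2 in those lacking both and fell in each mutant, with log2 changes of -0.65, -0.72 and -1.12. Cby1, which binds β-catenin and inhibits it, and the casein kinase gene Csnk1d had log2 changes of -1.04 (adjusted p = 0.0204) and -0.73 (adjusted p = 0.00919) in double deficient cells.

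Of 16 tested genes of the planar polarity and calcium branches, 2 rose in cells lacking Ring1B, 6 in those lacking Eed and 7 in those lacking both, where 2 fell. Prickle2 and Prickle1, cytoplasmic proteins of planar polarity, rose in double deficient cells by 1.87 (adjusted p = 2.61e-05) and 1.03 (adjusted p = 0.0181). Camk2a, a calcium-dependent kinase, and Nfatc1, a calcium-regulated transcription factor, rose there by 1.74 (adjusted p = 0.000532) and 1.40 (adjusted p = 0.000366). Of 10 tested genes described as β-catenin targets, 1 rose in Ring1B deficient and 4 in Eed deficient and double deficient cells each. They included Cd44, an adhesion receptor, with 54.8 to 84.6 in wild type cells, 70.6 to 123 in those lacking Ring1B, 205 to 643 in those lacking Eed and 534 to 638 in those lacking both, and Ephb3, a receptor of ephrins, with 49.1 to 53.9 in wild type cells, 91.7 to 113 in those lacking Ring1B, 93.3 to 113 in those lacking Eed and 78.5 to 121 in those lacking both. Jun and Tnfrsf19 rose in double deficient cells by 1.12 (adjusted p = 0.000382) and 0.63 (adjusted p = 0.0179). For Cd44 the Eed deficient array of replicate 3, at 643, stood far above the other Eed deficient arrays at 216 and 205. That is the array with the high fibroblast marker sum, and the part of those markers in the Cd44 signal was not tested. Without that array the counts of rises in Eed deficient cells were 7 for the extracellular list, 1 for receptors, 1 for transduction, 4 for polarity and 3 for targets, and 1 transduction gene fell.

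**Figure D5:**
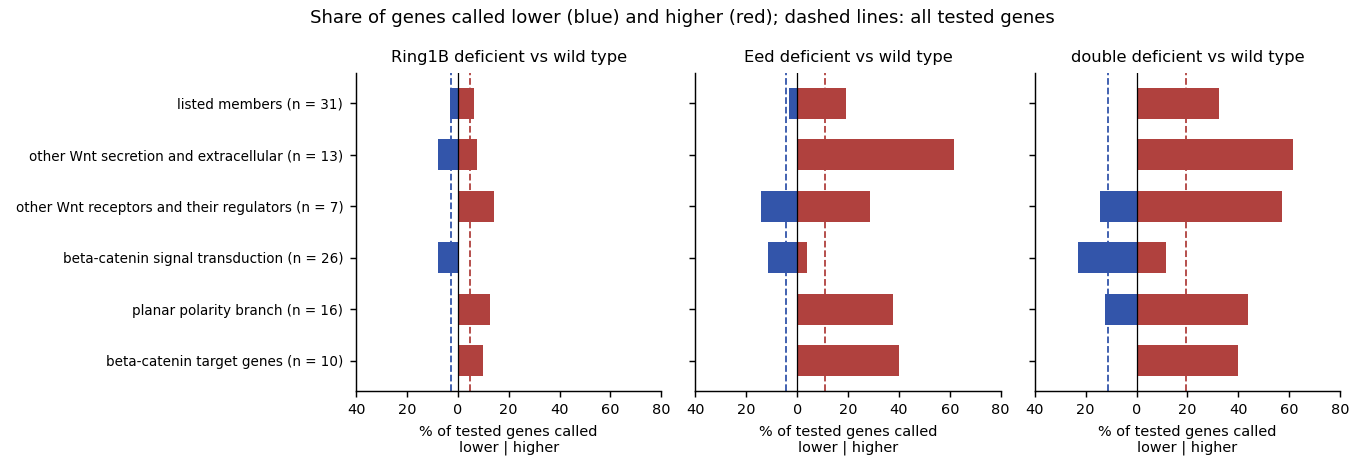
Share of tested genes called lower (to the left) and higher (to the right) against wild type for the listed members and 5 further lists of Wnt pathway genes, with the number tested in parentheses and dashed lines at the shares over all 13984 tested genes. In double deficient cells the dashed lines stand at 11.4% lower and 19.5% higher, and 6 genes of the transduction list fell while 3 rose.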

How the data were processed

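RNA was measured in 12 arrays, 3 for each of 4 genotypes, grouped by the titles in the labels. Per the submitters' processing notes, the authors made the deposited intensity values, which are linear signals, with MAS5. The MAS5 version was not given in the sources used here. With the top and bottom 2% of values removed, every array averaged 100. The array medians (19.07 to 28.01) had a ratio of 1.47, below the 1.5 chosen as the point for renormalizing, and the signals were used as deposited.

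Of 45101 probe sets, 34945 carried 1 gene symbol in the platform annotation. Of these, 25249 exceeded the array's own 40th percentile on 3 or more arrays and were kept, and the brightest per gene was tested, 13984 genes in all. log2(signal + 5) was fitted with limma 3.58.1 in R 4.3.3, with 1 mean per genotype, an intensity trend and Benjamini-Hochberg adjustment. On simulated data the fit was checked against known changes. Alternatives were quantile normalization, median centring, added values of 1 and 16, no filter and a stricter one, the mean over probe sets, the compared groups alone, a replicate block and leaving out each array. Testing each kept probe set on its own and counting the pathway lists under every setting were added after the data were seen.

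Same-numbered arrays deviated together in Eed deficient against Ring1B deficient cells (correlations across genes 0.40, 0.61 and 0.18). In the other comparisons of 2 genotypes the pairs of replicates 1 and 2 did so too (0.16 to 0.46). Those of replicate 3 had correlations from -0.05 to 0.10. The replicate number pairs samples only by that check. It is used as a block for Eed deficient against Ring1B deficient cells, and elsewhere only as an alternative.

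All members are accounted for. Values of every array are given for members called against wild type whose higher mean lay above the median of tested genes, and for some others chosen after their values were seen. Up to 4 genes of each pathway list are named by size of change among those called in double deficient cells. The members and lists were chosen with earlier results of these data known. Promoters came from RefSeq (GRCm38.p6).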

Additional observations from a re-analysis of the deposited data

How the results depend on the processing

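No called member changed direction under any alternative. The counts of members called higher and lower without any 1 array ran from 2 to 3 and from 0 to 1 in Ring1B deficient, from 4 to 6 and from 0 to 1 in Eed deficient and from 8 to 10 and 0 in double deficient cells against wild type. They ran from 1 to 2 and 0 against Eed deficient cells, from 4 to 10 and 0 against Ring1B deficient cells, and from 0 to 2 and 0 between the single mutants. Of all genes, 3.08% to 4.94%, 7.27% to 11.2% and 14.4% to 19.9% were then higher against wild type, in the same order. The shares lower were 1.13% to 2.59%, 2.39% to 4.93% and 7.24% to 11.8%. In these other comparisons 0.186% to 1.44%, 7.03% to 13.5% and 1.02% to 3.77% were higher. There 0.136% to 1.04%, 2.44% to 6.5% and 0.307% to 1.16% were lower. With only the compared groups fitted, Ring1B deficient cells had 1 higher and 0 lower, beside 2.83% and 1.19% of all genes. Eed deficient cells then had 3 higher and 0 lower, beside 7.05% and 2.22% of all genes. There was then 1 lower, Fzd5, in double deficient cells (11.3% of all genes), and 0 higher between the single mutants (1.33%). The fall in Ring1B deficient cells was lost with quantile normalization (0, beside 2.39% of all genes) and with no filter (0, beside 1.5%). That in Eed deficient cells was lost with no filter (0, beside 3%), while the mean over probe sets gave 2 falls there (4.66%). The fit with no filter held 41 members. Centring on the median gave 6 higher and 1 lower in double deficient cells (13.4% and 21% of all genes). It gave 0 higher between the single mutants (1.93%). Quantile normalization, an added value of 1 and no filter gave 1 higher between the single mutants, beside 2.47%, 3.22% and 2% of all genes. For the interaction the mean over probe sets gave 1 higher (0.794% of all genes). With a replicate block there were 4 rises and 2 falls in Ring1B deficient cells and 2 lower in double deficient cells. Against Eed deficient cells it gave 5 higher and 1 lower, and against Ring1B deficient cells 14 higher and 1 lower. Between the single mutants there were 5 higher and 1 lower, and for the interaction 3 higher and 1 lower. Against wild type the block added Fzd6 and Lef1 higher and Fzd7 lower in Ring1B deficient cells. It added Wnt10a higher in Eed deficient cells. In double deficient cells it added Wnt9a and Axin2 higher and Fzd5 and Fzd7 lower. Counts over all genes grew with the block too, to 9.12% higher and 6.78% lower in Ring1B deficient cells. They grew to 16.4% and 10.7% in Eed deficient and 25% and 17.2% in double deficient cells. Against Eed deficient cells they were 4.68% and 4.63%, and against Ring1B deficient cells 19.5% and 11.8%. Between the single mutants they were 8.17% and 4.03%, and for the interaction 3.87% and 5.14%. Of the 12 arrays, 9 correlated best with arrays of their own number, and 13 of 18 same-numbered pairs had a correlation over 0.1, a hint from the data and not from the design. The causes were not tested. Signals near the background limit what can be read of the dimmest members.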
